A study of Mus musculus with 10 samples.

Results

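The SLAM receptors and their signalling partners SAP and Fyn were examined by ATAC-seq, which reads open chromatin as the places where a transposase inserts into DNA, in thymic iNKT1 and iNKT2 cells of the BALB/c and SKG strains. The set held 8 genes: the receptors Slamf1, Slamf6, Slamf7, Cd84, Ly9 and Cd48, the adaptor gene Sh2d1a that encodes SAP, and the kinase gene Fyn. A region of the table was assigned to a gene when it overlapped the gene body or lay within 50 kb of the gene's transcription start, which gave 151 of the 94823 regions. Slamf1 had 15 regions, Slamf6 11, Slamf7 31, Cd84 16, Ly9 28, Cd48 21, Sh2d1a 13 and Fyn 62. Because the 6 receptor genes lie in 1 cluster, 37 regions lay in the windows of 2 or more genes and were counted under each, and 114 lay in a single window. All 10 libraries came from mice of the BALB/c background. BALB/c mice carry normal Zap70, and SKG mice carry a hypomorphic Zap70 allele that weakens T cell receptor signalling in all T lineage cells. The mice were 8 to 10 weeks old, and each genotype gave 2 libraries of iNKT1 cells and 3 libraries of iNKT2 cells. Both subsets were sorted as CD27+ cells, iNKT1 as CD122+ and iNKT2 as CD122-, and the labels do not say whether replicates came from separate mice or pools, so p-values measure the spread between these libraries.

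iNKT cells are selected by CD1d on other double-positive thymocytes rather than on epithelium, and SLAM receptors on the paired thymocytes provide a second signal at that contact. Most SLAM receptors bind themselves on the neighbouring cell, whereas Cd48 is a ligand of Cd244. Slamf1 and Slamf6 (Ly108) recruit SAP through their cytoplasmic tails, and SAP brings in Fyn, and loss of SAP or Fyn impairs iNKT development. In the figures and values that follow, accessibility is given as CPM, the transposase insertions of a region scaled by the library total and its TMM factor, and a region was called when its adjusted p was under 0.01 in edgeR's quasi-likelihood test over all regions.

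The regions on which the results turned are shown first, as the middle 300 bases on the plus strand of GRCm38 (mm10). They are non-UTR regions with the smallest adjusted p between BALB/c subsets at Slamf7, Slamf1, Cd84, Sh2d1a and Fyn, the intronic Slamf7 region with the highest level, and a region upstream of Fyn that is described with the genotypes. Capitals mark matches, on either strand, to 8 short strings: NFAT TGGAAA, Egr GTGGGCG, Runx TGTGGTT, T-box GGTGTGA, ETS AGGAAG, TCF TCAAAG, E-box CAGCTG and AP-1 TGANTCA. A match is a description of the letters and not of binding.
Slamf7 intron, chr1:171643690-171643989: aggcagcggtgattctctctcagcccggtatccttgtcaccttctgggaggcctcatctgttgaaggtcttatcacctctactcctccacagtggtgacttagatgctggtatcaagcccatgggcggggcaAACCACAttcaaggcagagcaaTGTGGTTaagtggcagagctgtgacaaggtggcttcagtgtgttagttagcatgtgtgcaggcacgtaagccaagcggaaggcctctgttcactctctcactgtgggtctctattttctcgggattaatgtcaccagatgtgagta
Slamf7 upstream, chr1:171658606-171658905: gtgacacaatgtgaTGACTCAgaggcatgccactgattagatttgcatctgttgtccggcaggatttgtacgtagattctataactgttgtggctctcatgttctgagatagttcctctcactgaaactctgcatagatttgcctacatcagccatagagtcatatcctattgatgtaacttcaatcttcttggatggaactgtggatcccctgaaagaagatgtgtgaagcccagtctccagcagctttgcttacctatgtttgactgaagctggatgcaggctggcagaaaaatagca
Slamf1 upstream, chr1:171734896-171735195: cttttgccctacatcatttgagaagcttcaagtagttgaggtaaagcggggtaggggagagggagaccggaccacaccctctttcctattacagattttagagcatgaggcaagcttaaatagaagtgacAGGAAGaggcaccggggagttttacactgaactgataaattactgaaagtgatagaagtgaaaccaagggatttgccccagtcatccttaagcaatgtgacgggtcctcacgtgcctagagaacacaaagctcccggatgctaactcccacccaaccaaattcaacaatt
Cd84 upstream, chr1:171827720-171828019: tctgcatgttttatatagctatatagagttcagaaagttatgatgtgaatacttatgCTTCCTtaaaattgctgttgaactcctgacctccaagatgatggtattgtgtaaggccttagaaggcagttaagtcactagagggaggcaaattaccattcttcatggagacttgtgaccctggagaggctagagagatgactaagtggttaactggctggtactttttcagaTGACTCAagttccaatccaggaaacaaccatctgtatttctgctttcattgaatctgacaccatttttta
Sh2d1a upstream, chrX:42499375-42499674: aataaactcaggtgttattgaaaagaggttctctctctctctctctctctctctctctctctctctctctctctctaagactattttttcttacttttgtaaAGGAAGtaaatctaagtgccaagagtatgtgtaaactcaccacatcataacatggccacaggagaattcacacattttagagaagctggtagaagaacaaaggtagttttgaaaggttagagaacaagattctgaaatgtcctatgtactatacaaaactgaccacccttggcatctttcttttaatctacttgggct
Fyn intron, chr10:39479407-39479706: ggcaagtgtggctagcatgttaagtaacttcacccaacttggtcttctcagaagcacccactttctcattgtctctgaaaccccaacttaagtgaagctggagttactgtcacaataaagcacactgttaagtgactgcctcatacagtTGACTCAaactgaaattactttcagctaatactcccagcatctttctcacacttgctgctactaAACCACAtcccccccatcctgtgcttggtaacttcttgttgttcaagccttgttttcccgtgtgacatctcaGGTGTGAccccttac
Fyn upstream, chr10:39358489-39358788: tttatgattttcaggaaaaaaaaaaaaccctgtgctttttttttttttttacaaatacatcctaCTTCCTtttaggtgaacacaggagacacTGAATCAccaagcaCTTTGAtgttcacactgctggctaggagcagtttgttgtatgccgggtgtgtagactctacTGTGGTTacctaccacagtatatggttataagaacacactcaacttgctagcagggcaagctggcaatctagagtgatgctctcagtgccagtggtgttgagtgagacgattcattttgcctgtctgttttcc
The Slamf7 intron held 2 Runx matches and the Slamf7 upstream region 1 AP-1 match. The Fyn intron held 1 match each to the Runx, T-box and AP-1 strings. Over the middle 300 bases of all regions, 13.2% held the Runx string, 5.48% the T-box string, 10.6% the AP-1 string, 23.4% the NFAT string and 45.3% the ETS string.

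The library totals ran from 14988590 to 36342635 insertions, with a median of 40 to 120 insertions per region, and libraries of a group correlated at r = 0.952 to 0.977 (log2 CPM, across regions). Replicate 1 of BALB/c iNKT2 and replicate 1 of SKG iNKT2 stood further from their group mates than the other iNKT2 libraries did from each other, with a chi-square per region of 8.516 to 12.28 against 2.594 to 3.325. The labelled subsets were checked at the promoters of marker genes. The 4 iNKT1 markers summed to 196 to 220 CPM in iNKT1 and to 43.8 to 63.8 CPM in iNKT2 libraries, and the 4 iNKT2 markers to 64.4 to 74.6 CPM and 69.8 to 116 CPM. Of the latter, Il17rb was higher in iNKT2 in both genotypes (log2 1.08 and 1.44) and Ccr7 in SKG (1.46), Zbtb16 was not called (-0.36 and 0.08), and Il4 was not called in BALB/c (-0.63) and was lower in SKG (-1.49). The 3 of 4 iNKT17 markers with a promoter region summed to 0.0642 to 0.771 CPM in iNKT1 and to 7.70 to 12.04 CPM in iNKT2 libraries, so they moved with the subset contrast, and their part in the subset differences was not tested. Of 5 double-positive thymocyte markers 1 had a promoter region, at no more than 1.93 CPM. None of 4 B cell markers had one. The 2 of 4 myeloid markers with a region summed to 17.5 to 19.0 CPM in iNKT1 and to 6.11 to 8.22 CPM in iNKT2 libraries. The 3 T cell markers summed to 60.7 to 72.4 CPM and 39.2 to 58.5 CPM, and the 2 of 3 erythroid markers with a region to 24.3 to 27.3 CPM and 32.2 to 39.8 CPM.

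The first comparison asked how the subsets differ at these genes. In BALB/c, 56 of the 151 regions were lower in iNKT2 than in iNKT1 and 27 were higher. The shares were 37.1% lower and 17.9% higher, beside 23.4% and 25.7% over all regions of the table. At least 4-fold, 34 regions were lower (22.5%, against 6.36% of all regions) and 8 higher (5.30%, against 15.5%). In SKG, 53 regions were lower (35.1%, against 17.6%) and 21 higher (13.9%, against 18.4%), of which 34 (22.5%, against 6.96%) and 9 (5.96%, against 10.2%) passed 4-fold. On the log2 scale the 151 regions had a median change of -0.30 (BALB/c) and -0.28 (SKG), beside 0.06 and 0.14 for the whole table. Scaling by library totals moved the median of all regions to 0.34 and 0.32, and under it 13 regions were higher by 4-fold in BALB/c, beside 18% of all regions. In sorted populations measured in bulk, a smaller share of cells with an open region and less opening per cell cannot be told apart.

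The receptors differed in direction along chromosome 1. Slamf7 and the Cd244a gene were less accessible in iNKT2 cells, and so were most regions in the Ly9 window. Of the 28 Ly9 regions only 2 overlap the Ly9 gene, and both also overlap the Cd244a gene. Slamf1 and Slamf6 were more accessible at most of their called regions. In BALB/c 46.7% and 45.5% of their regions were higher, against 25.7% of all regions. At Cd84 25.0% were higher, near the share of all regions, and 6.25% lower, against 23.4%. Up to the start of Cd48, the 37 regions between 171558990 and 171681353 included 28 that were lower and 1 that was higher in BALB/c iNKT2, with a median change of -2.88. From the start of Cd48 to 171966779, the 39 remaining regions included 16 that were higher and 2 that were lower, with a median of 0.63. In SKG the same stretches held 25 lower and 1 higher, and 14 higher and 2 lower. The border was placed after the values were seen, so these counts are a description.

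**Figure D1:**
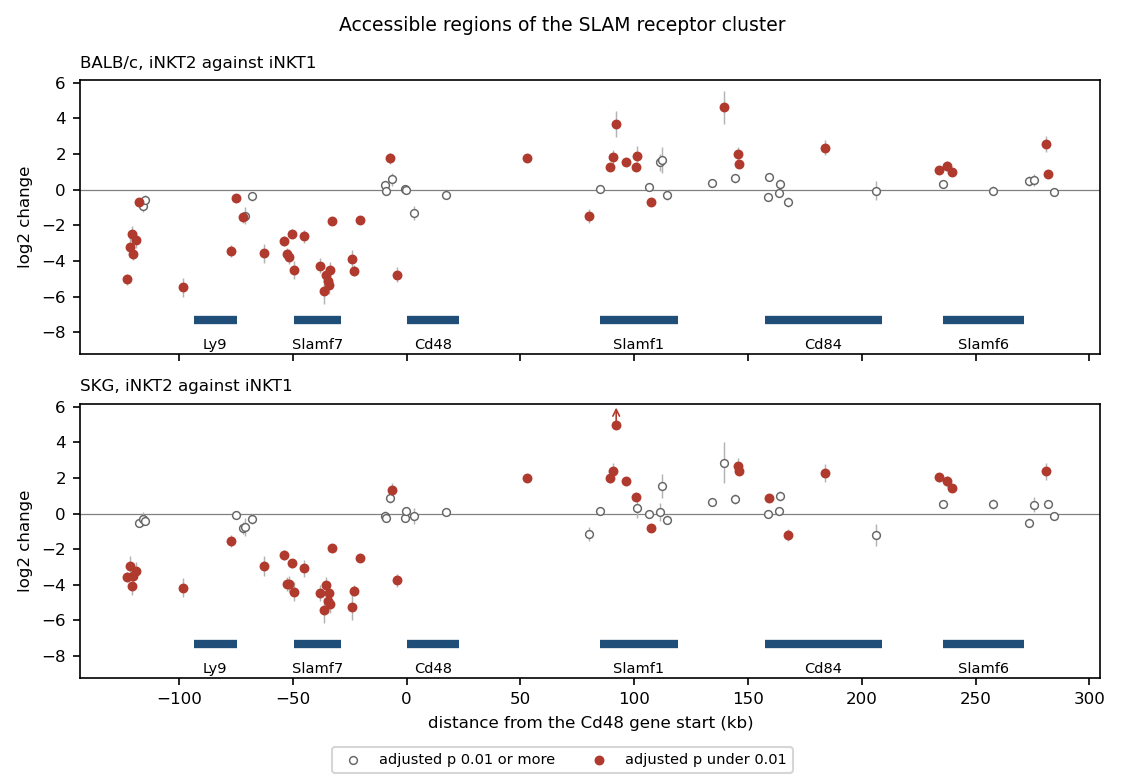
Log2 change of iNKT2 against iNKT1 (y axis, bars are standard errors) for each region of the SLAM receptor cluster by its distance in kb from the Cd48 gene start (x axis), in BALB/c (top) and SKG (bottom); blue bars are gene bodies. Regions left of Cd48 lie mostly below 0 and those to its right mostly above, and the point with an arrow is a lower bound because both SKG iNKT1 libraries were at 0.

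Slamf7 (CRACC), a self-binding receptor well known on NK cells, had 21 of 31 regions lower (67.7%, against 23.4% of all regions) and 1 higher (3.23%, against 25.7%) in BALB/c iNKT2. In SKG 19 were lower (61.3%, against 17.6%) and 1 higher (3.23%, against 18.4%). The intronic region (171643577–171644102) had the highest mean level of its regions per length, 60.0 CPM per kb. It measured 58.3 and 57.5 CPM in BALB/c iNKT1, and 5.43, 2.06 and 1.48 CPM in BALB/c iNKT2. In SKG it measured 62.4 and 63.3 CPM in iNKT1, and 5.08, 1.33 and 1.35 CPM in iNKT2. All iNKT1 libraries stood above all iNKT2 libraries, with replicate 1 the highest of the iNKT2 libraries in both genotypes. The region was 19.1-fold lower in BALB/c iNKT2 (log2 -4.26 ± 0.44 SE, adjusted p = 9.8e-07) and 22.2-fold lower in SKG iNKT2 (-4.47 ± 0.45, adjusted p = 1.1e-06).

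The intergenic region 5.72 kb upstream of Slamf7 (171658457–171659055), which also lies in the Cd48 window, had the smallest adjusted p of both genes in both subset contrasts. It measured 25.5 and 25.3 CPM in BALB/c iNKT1 and 1.63, 0.714 and 0.907 CPM in BALB/c iNKT2, and the groups did not overlap. The SKG libraries measured 28.1 and 25.5 CPM in iNKT1 and 1.93, 0.873 and 0.944 CPM in iNKT2. The difference was 23.4-fold in BALB/c (-4.55 ± 0.30, adjusted p = 1.7e-08) and 20.1-fold in SKG (-4.33 ± 0.30, adjusted p = 3.7e-08).

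No region lay within 1 kb of the start of the Slamf7 gene record. The region at 171648844–171649367 covered the start of 4 of its 5 annotated transcripts. It measured 21.5 and 19.1 CPM in BALB/c iNKT1 and 7.43, 5.42 and 5.48 CPM in BALB/c iNKT2, a 3.32-fold difference (-1.73 ± 0.19, adjusted p = 2.1e-06). In SKG the difference was 3.81-fold (-1.93 ± 0.20, adjusted p = 1.5e-06), so Slamf7 differed at its start as well as at distal regions.

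Ly9, which encodes the self-binding receptor CD229, had 24 of 28 regions lower (85.7%, against 23.4% of all regions) and none higher (against 25.7%) in BALB/c iNKT2. In SKG 21 were lower (75.0%, against 17.6%) and none higher (against 18.4%). The Cd244a gene record spans Ly9, and most of the 28 lay in Cd244a or Slamf7. Only 2 of the 28 overlap the Ly9 gene, and both also overlap Cd244a. Of the 2, the region 2.55 kb inside changed by -3.46 ± 0.33 in BALB/c (edgeR adjusted p = 4.3e-07) and -1.55 ± 0.35 in SKG (adjusted p = 0.0016). The smallest adjusted p in the Ly9 window belonged to a region over the start of Cd244a (171558990–171559304), the gene of the Cd48 receptor 2B4. That region measured 8.54 and 6.26 CPM in BALB/c iNKT1 and 0.282, 0.238 and 0.124 CPM in BALB/c iNKT2. It was 32.7-fold lower in BALB/c iNKT2 (-5.03 ± 0.31, adjusted p = 1.1e-08), and in SKG the log2 change was -3.58 ± 0.29 (adjusted p = 1.2e-07). At the Ly9 start itself (171606677–171607650) the difference was small: 29.0 and 27.3 CPM in BALB/c iNKT1 and 22.4, 19.7 and 18.6 CPM in BALB/c iNKT2 (-0.48 ± 0.14, adjusted p = 0.0063). That call was kept in 5 of 14 alternative fits, over which the change ran from -0.54 to -0.03, and it was lost without either BALB/c iNKT1 library or without BALB/c iNKT2 replicate 2 or 3. In SKG the Ly9 start was not called (-0.06 ± 0.14, adjusted p = 0.72).

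Cd48, a glycolipid-anchored receptor found on most blood cells, had 13 of 21 regions lower (61.9%) and 1 higher (4.76%) in each genotype. The shares of all regions were 23.4% and 25.7% in BALB/c and 17.6% and 18.4% in SKG. All 21 also lie in the Slamf7 window, and the lower ones lay upstream of the Cd48 start. The 3 regions that overlap the Cd48 gene were not called (edgeR adjusted p = 0.93, 0.011 and 0.25 in BALB/c, and 0.48, 0.81 and 0.74 in SKG). The Cd48 start (171681468–171682419) measured 13.4 and 11.0 CPM in BALB/c iNKT1 and 10.6, 13.0 and 12.6 CPM in BALB/c iNKT2. These groups overlapped, and the change was -0.02 ± 0.17 (adjusted p = 0.93) in BALB/c and 0.16 ± 0.18 (adjusted p = 0.48) in SKG.

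Slamf1 (SLAM, CD150) had 7 of 15 regions higher (46.7%, against 25.7% of all regions) and 2 lower (13.3%, against 23.4%) in BALB/c iNKT2. In SKG 6 were higher (40.0%, against 18.4%) and 1 lower (6.67%, against 17.6%). An intergenic region 32.1 kb upstream (171734845–171735246) measured 3.85 and 4.28 CPM in BALB/c iNKT1 and 15.8, 14.7 and 11.8 CPM in BALB/c iNKT2. In SKG it measured 3.73 and 4.55 CPM in iNKT1 and 18.6, 16.1 and 14.2 CPM in iNKT2. Every iNKT2 library was above every iNKT1 library. The rise was 3.48-fold in BALB/c (1.80 ± 0.20, adjusted p = 2.2e-06) and 3.95-fold in SKG (1.98 ± 0.21, adjusted p = 1.9e-06).

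Not all Slamf1 regions followed that direction. The most accessible one, an intronic region at 171789267–171789774, measured 18.7 and 18.9 CPM in BALB/c iNKT1 and 11.9, 11.1 and 11.8 CPM in BALB/c iNKT2 (-0.70 ± 0.20, adjusted p = 0.0071). That call was kept in 5 of 14 alternative fits, and was lost without either BALB/c iNKT1 library or without BALB/c iNKT2 replicate 2 or 3. In SKG the region was also lower in iNKT2 (-0.80 ± 0.20, edgeR adjusted p = 0.0038), a call kept in 9 of 14 alternative fits. The Slamf1 start (171766886–171767284) measured 8.36 and 9.35 CPM in BALB/c iNKT1 and 8.97, 9.50 and 8.33 CPM in BALB/c iNKT2 and was not called (0.02 ± 0.16, adjusted p = 0.94). A further intronic region (171773977–171774281) had no insertion in either SKG iNKT1 library and 2.44, 2.85 and 3.84 CPM in SKG iNKT2. Taking 3 insertions in the group as the floor, it was at least 31.6-fold higher in SKG iNKT2.

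Cd84, a self-binding receptor of lymphocytes and platelets, had 4 of 16 regions higher (25.0%, against 25.7% of all regions) and 1 lower (6.25%, against 23.4%) in BALB/c iNKT2. In SKG 4 were higher (25.0%, against 18.4%) and 2 lower (12.5%, against 17.6%). The region 11.8 kb upstream (171827703–171828037) measured 4.03 and 3.31 CPM in BALB/c iNKT1 and 10.1, 10.1 and 10.4 CPM in BALB/c iNKT2. In SKG it measured 1.80 and 1.80 CPM in iNKT1 and 9.27, 8.91 and 9.78 CPM in iNKT2. The subsets did not overlap, and the rise was 2.76-fold in BALB/c (1.47 ± 0.19, adjusted p = 7.5e-06) and 5.17-fold in SKG (2.37 ± 0.22, adjusted p = 4.3e-07). The difference between these rises was not called (0.90 ± 0.28, adjusted p = 0.084). The region over the start of 3 of the 5 Cd84 transcripts changed by -0.42 ± 0.15 in BALB/c (adjusted p = 0.026) and -0.05 ± 0.16 in SKG (adjusted p = 0.83), and neither was called.

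Slamf6, the receptor most tied to iNKT selection with Slamf1, had 5 of 11 regions higher (45.5%, against 25.7% of all regions) and none lower (against 23.4%) in BALB/c iNKT2. In SKG 4 were higher (36.4%, against 18.4%) and none lower (against 17.6%). An intronic region (171920874–171922140), its most accessible, measured 22.2 and 15.96 CPM in BALB/c iNKT1 and 41.8, 40.9 and 30.2 CPM in BALB/c iNKT2. It was 1.97-fold higher in BALB/c iNKT2 (0.98 ± 0.18, adjusted p = 0.00026) and 2.67-fold higher in SKG iNKT2 (1.42 ± 0.19, adjusted p = 2.1e-05). Without BALB/c iNKT1 replicate 2 the BALB/c change was 0.76 (adjusted p = 0.011). A region 1.44 kb upstream (171915517–171916640) measured 3.15 and 3.08 CPM in SKG iNKT1 and 11.5, 10.1 and 16.7 CPM in SKG iNKT2, a 4.06-fold rise (2.02 ± 0.25, adjusted p = 7.3e-06). Its rise in BALB/c was smaller (log2 1.10, edgeR adjusted p = 0.00043) and was called in all 14 alternative fits. The difference between the 2 rises was not called (0.93, edgeR adjusted p = 0.12). The Slamf6 start was not called in BALB/c (0.34 ± 0.22, adjusted p = 0.19) or in SKG (0.55 ± 0.23, adjusted p = 0.06).

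**Figure D2:**
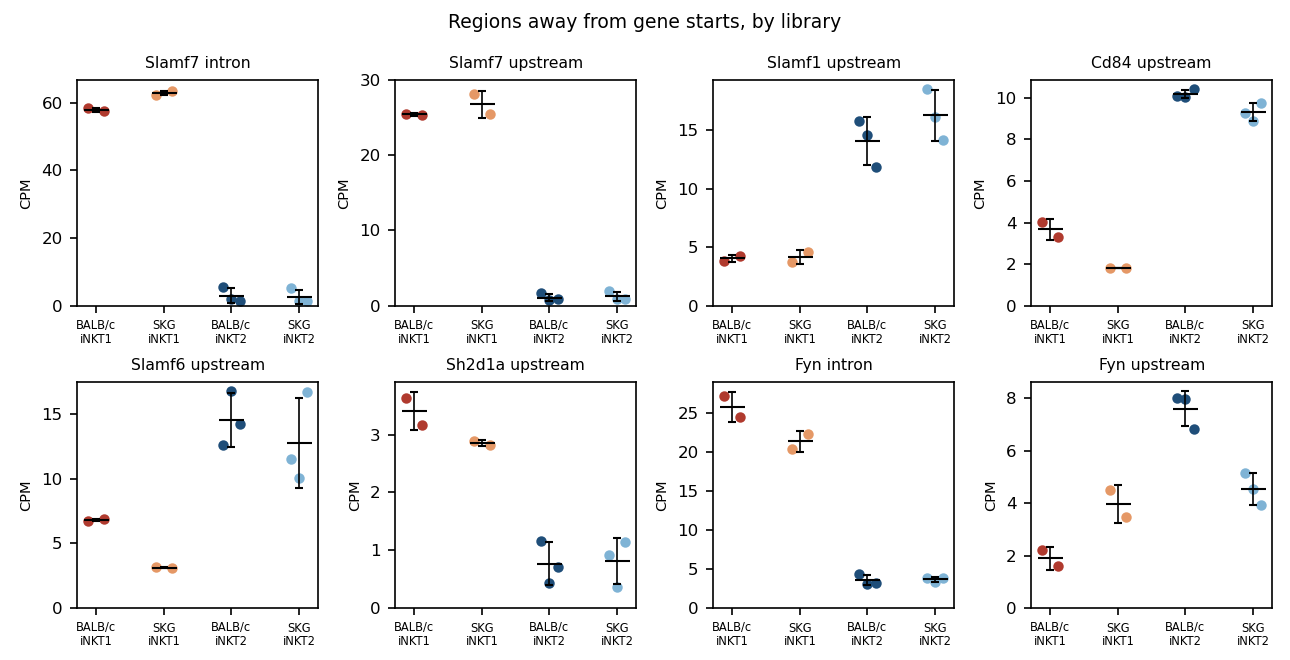
CPM of 8 regions away from gene starts (y axes from 0) in each library of the 4 groups (x axes); points are libraries, and bars are the group mean and SD. The Slamf7 and Fyn intron regions are high in iNKT1 libraries, the Slamf1, Cd84 and Slamf6 regions in iNKT2 libraries, and the Fyn upstream region differs between genotypes in opposite directions in the subsets.

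Sh2d1a lies on the X chromosome and encodes SAP, the adaptor that couples SLAM receptors to Fyn. In BALB/c iNKT2, 3 of its 13 regions were higher (23.1%, against 25.7% of all regions) and 2 lower (15.4%, against 23.4%). In SKG 2 were higher (15.4%, against 18.4%) and 1 lower (7.69%, against 17.6%). The start region (chrX:42502192-42503194) was its most accessible, at 30.7 CPM per kb. It measured 27.4 and 27.6 CPM in BALB/c iNKT1, 27.9, 29.7 and 31.7 CPM in BALB/c iNKT2, 33.2 and 32.1 CPM in SKG iNKT1, and 28.9, 35.3 and 35.3 CPM in SKG iNKT2. It was not called in BALB/c (0.11 ± 0.13, adjusted p = 0.49) or in SKG (0.02 ± 0.14, adjusted p = 0.92).

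A low region 2.93 kb upstream of Sh2d1a (42499370–42499680) went down in iNKT2. It measured 3.64 and 3.17 CPM in BALB/c iNKT1 and 1.16, 0.423 and 0.701 CPM in BALB/c iNKT2, a 4.50-fold difference (-2.17 ± 0.39, adjusted p = 0.0002). In SKG it was 3.56-fold lower (-1.83 ± 0.43, adjusted p = 0.0022), and without either SKG iNKT1 library it missed the threshold (adjusted p up to 0.019). The promoter of Xist, on the same chromosome, ranged from 9.96 to 13.0 CPM in iNKT1 and from 2.83 to 12.03 CPM in iNKT2 libraries, and its part in the Sh2d1a values was not tested.

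Fyn encodes the Src family kinase recruited by SAP. Of its 62 regions 24 were lower (38.7%, against 23.4% of all regions) and 7 higher (11.3%, against 25.7%) in BALB/c iNKT2. In SKG 25 were lower (40.3%, against 17.6%) and 4 higher (6.45%, against 18.4%). By at least 4-fold, 10 were lower in BALB/c (16.1%, against 6.36%) and 11 in SKG (17.7%, against 6.96%). The lower regions included 3 neighbours about 111 kb into the gene. The middle one (39479362–39479751) measured 27.2 and 24.5 CPM in BALB/c iNKT1 and 4.30, 3.09 and 3.26 CPM in BALB/c iNKT2. In SKG it measured 20.4 and 22.3 CPM in iNKT1 and 3.89, 3.31 and 3.84 CPM in iNKT2. All iNKT1 libraries were above all iNKT2 libraries, 7.27-fold in BALB/c (-2.86 ± 0.18, adjusted p = 1.2e-08) and 5.80-fold in SKG (-2.54 ± 0.19, adjusted p = 5.6e-08).

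The regions over annotated Fyn starts were not called between subsets. The region at the gene start (39368536–39369169) changed by 0.01 ± 0.25 in BALB/c (adjusted p = 0.97) and 0.46 ± 0.28 in SKG (adjusted p = 0.18). The region 0.84 kb inside (39369529–39369862), over the start of 3 of the 9 transcripts, was the most accessible of all at 218 CPM per kb, and it changed by -0.24 ± 0.16 in BALB/c (adjusted p = 0.20) and -0.28 ± 0.16 in SKG (adjusted p = 0.15). A low region over a further start (39419879–39420178) changed by 1.06 ± 0.38 in BALB/c (adjusted p = 0.023) and -0.57 ± 0.45 in SKG (adjusted p = 0.32).

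**Figure D3:**
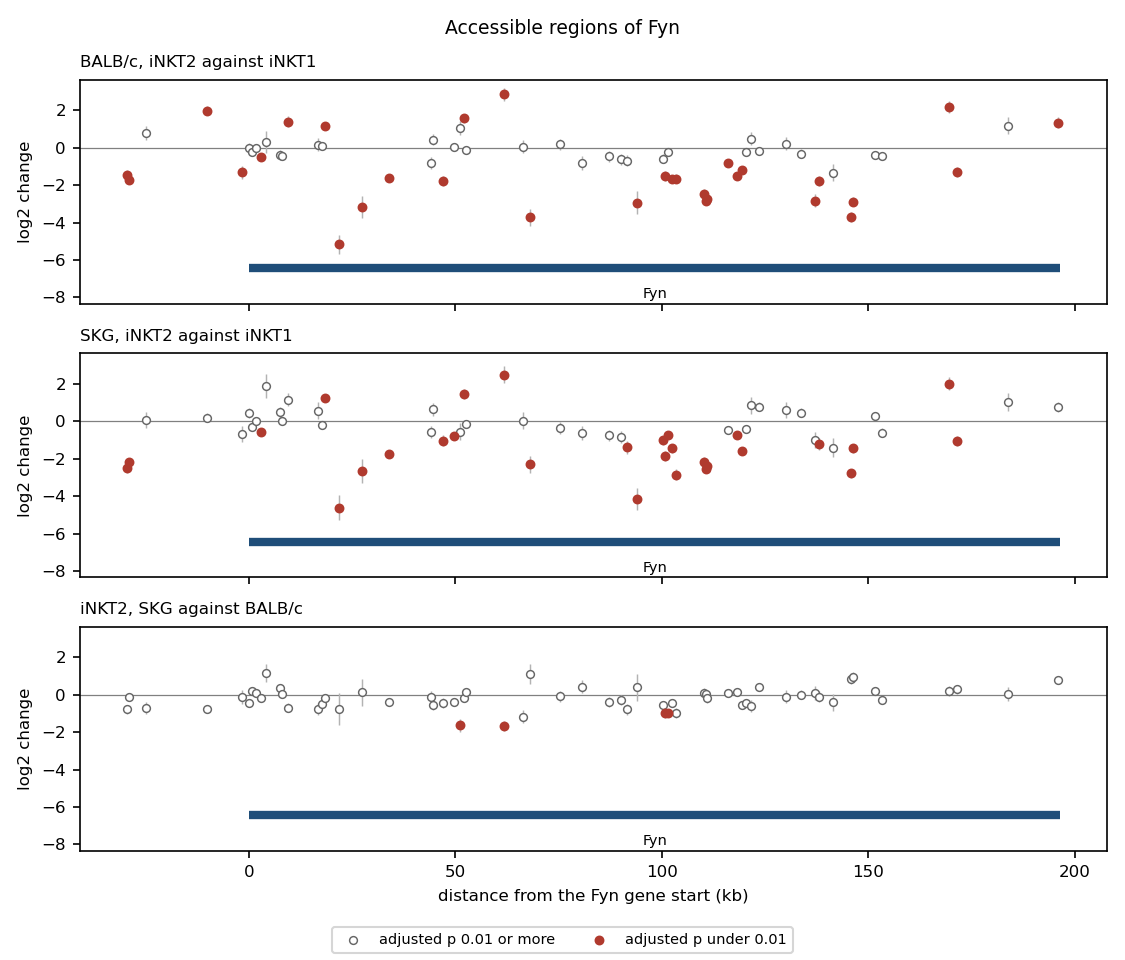
Log2 change (y axes, bars are standard errors) of each Fyn region by its distance in kb from the gene start (x axis) for iNKT2 against iNKT1 in BALB/c (top) and SKG (middle) and, in the bottom panel, for the genotypes in iNKT2 (SKG against BALB/c). Most called regions in the subset panels lie below 0 within the gene body, and 4 regions are called in the genotype panel, all below 0.

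Per length, the start regions measured 30.7 CPM per kb at Sh2d1a, 27.9 at Ly9, 25.3 at Slamf1, 12.9 at Cd48 and 12.2 at Slamf6. For Cd84 (25.9 CPM per kb) and Slamf7 (24.1) the region lay over inner transcript starts. Fyn measured 14.4 CPM per kb at the start of its gene record and 218 at its inner start, so its place depends on the start chosen. The median promoter region of a protein-coding gene was at 42.95 CPM per kb, over 12414 promoter regions.

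**Figure D4:**
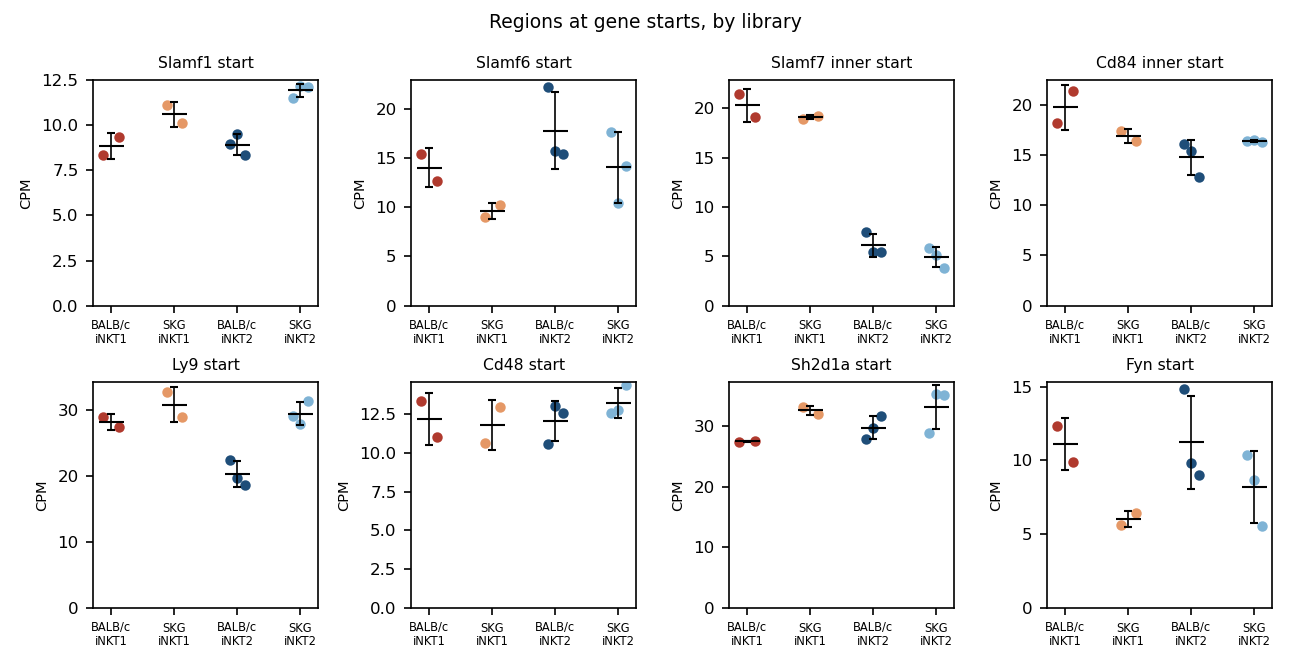
CPM of the region at or nearest to the start of each of the 8 genes (y axes from 0) in each library of the 4 groups (x axes); points are libraries, and bars are the group mean and SD. Over both genotypes the subsets overlap at every start but that of Slamf7, which is higher in all iNKT1 libraries.

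Summed over all regions of a gene, Slamf7 measured 362 ± 12.9 CPM (SD, n = 2) in BALB/c iNKT1 and 99.8 ± 9.58 CPM (SD, n = 3) in BALB/c iNKT2. Ly9 measured 336 ± 11.9 and 59.3 ± 13.7 CPM, and Fyn 577 ± 18.9 and 375 ± 15.1 CPM. The windows of neighbouring receptors share regions, so the Slamf7 and Ly9 totals are not separate results. Only 2 of the 28 Ly9 regions overlap the Ly9 gene. Slamf1 measured 66.2 ± 1.198 and 95.7 ± 6.91 CPM and Slamf6 65.4 ± 10.1 and 105 ± 12.6 CPM. Cd84 (103 ± 2.04 and 102 ± 5.18 CPM) and Sh2d1a (53.0 ± 2.33 and 58.2 ± 2.18 CPM) were nearly level in total, although single regions moved both ways.

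The letters in the regions that differed were compared with the whole table. Of the 34 regions lower by at least 4-fold in BALB/c iNKT2, 23.5% held the Runx string (13.2% of all regions), 14.7% the T-box string (5.48%) and 23.5% the AP-1 string (10.6%), while 8.82% held the NFAT string (23.4%) and 2.94% the E-box string (17.4%). Of the 27 higher regions, 11.1% held the Runx string, 3.70% the T-box string, 29.6% the AP-1 string and 29.6% the NFAT string. These shares rest on 1 to 8 regions each. Over all 151 regions of the 8 genes, 14.6% held the Runx string, 9.27% the T-box string and 20.5% the AP-1 string. The NFAT string was in 21.2% of the 151 and the E-box string in 14.6%, so the AP-1 share was already high at these genes.

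The second comparison asked whether weak Zap70 signalling altered these genes. In iNKT1, none of the 151 regions was called in either direction by edgeR's quasi-likelihood test, against 0.662% higher and 1.42% lower over all regions (4-fold, 0.281% and 0.732%). An unadjusted p under 0.05 was reached by 35 regions (23.2%, against 17.1% of all regions), and DESeq2 called 2 higher and 1 lower, beside 1.22% and 1.96% of all regions. An edgeR fit of only the 2 iNKT1 groups called 7 higher and 13 lower of the 151, beside 2881 and 3970 of all 94823 regions. In iNKT2, 6 regions were higher in SKG (3.97%, against 4.02%) and 5 lower (3.31%, against 10.1%), and none passed 4-fold in either direction (0.252% and 4.73% of all regions). With replicate numbers as a block within iNKT2 libraries, the counts were 12 higher and 13 lower of 151 in iNKT2, beside 11.6% and 15% of all regions in that fit. In iNKT1 they were 7 higher and 10 lower, beside 1.99% and 3.7%. With library totals in place of TMM factors no region was called higher in iNKT2 (1.76% of all regions), and without BALB/c iNKT2 replicate 1 the lower regions numbered 3.

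Of the 76 receptor regions, 6 were higher (7.89%) and 1 lower (1.32%) in SKG iNKT2, with 3 of the higher ones at Slamf1. At Fyn 4 of 62 were lower (6.45%) and none higher, a lower share than the 10.1% of the whole table, and whether receptors and Fyn differ in this was not tested. An intronic Slamf1 region in the Cd84 window (171796200–171796571) measured 2.01, 2.196 and 1.40 CPM in BALB/c iNKT2 and 4.16, 3.95 and 3.98 CPM in SKG iNKT2, a 2.13-fold rise (1.09 ± 0.23, adjusted p = 0.0028) that missed the threshold without BALB/c iNKT2 replicate 3 (adjusted p up to 0.02 over the alternatives). In iNKT1 it measured 2.15 and 2.51 CPM in BALB/c and 4.11 and 6.16 CPM in SKG and missed the threshold (1.14 ± 0.28, adjusted p = 0.028). The Ly9 start measured 22.4, 19.7 and 18.6 CPM in BALB/c iNKT2 and 29.1, 27.9 and 31.3 CPM in SKG iNKT2 (0.54 ± 0.12, adjusted p = 0.0046), a call kept in 7 of 15 alternative fits. The region over the Cd244a start was 2.88-fold higher in SKG iNKT2 (1.53 ± 0.37, adjusted p = 0.007), also kept in 7 of 15. Each of these calls was lost without replicate 2 or 3 of BALB/c iNKT2, the Ly9 one also without replicate 2 or 3 of SKG iNKT2 and the Cd244a one without replicate 1 or 3. A region 6.57 kb upstream of Cd48 (171675257–171675619) was 2.27-fold higher (1.18 ± 0.28, adjusted p = 0.0063), a call kept in 9 of 15 fits and lost without any BALB/c iNKT2 library or without SKG iNKT2 replicate 2.

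An intronic Fyn region (39430401–39430718) measured 6.21, 5.21 and 6.10 CPM in BALB/c iNKT2 and 2.29, 1.61 and 1.48 CPM in SKG iNKT2. The groups did not overlap, and the region was 3.17-fold lower in SKG (-1.67 ± 0.26, adjusted p = 0.00025), a call kept in all 15 alternative fits. It was low in every iNKT1 library, at 0.597 and 1.06 CPM in BALB/c and 0.193 and 0.449 CPM in SKG. Slamf6 and Sh2d1a had no region called between genotypes in either subset in edgeR's fit of all libraries. The Slamf6 region upstream of the start measured 6.75 and 6.88 CPM in BALB/c iNKT1 and 3.15 and 3.08 CPM in SKG iNKT1, without reaching the threshold (-1.13 ± 0.26, adjusted p = 0.02). It was called in 4 of 13 alternative fits (adjusted p from 0.0011 to 0.15), and the intronic Slamf6 region in 2 of 13 (adjusted p from 0.0069 to 0.56).

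The genotype change differed between the subsets at 1 region, lower in iNKT2, and at none in the other direction (0.662% and 0.00% of the 151, against 0.479% and 0.446% of all regions). This was the intergenic region 10.2 kb upstream of Fyn (39358473–39358805). It measured 2.21 and 1.59 CPM in BALB/c iNKT1 and 4.50 and 3.46 CPM in SKG iNKT1, against 7.998, 7.99 and 6.84 CPM in BALB/c iNKT2 and 5.14, 4.55 and 3.91 CPM in SKG iNKT2. It was higher in both SKG libraries in iNKT1 and lower in all 3 SKG libraries in iNKT2, but neither genotype change passed the threshold on its own (1.05, adjusted p = 0.032, and -0.74, adjusted p = 0.011). The difference of the changes was -1.79 ± 0.33 (log2, adjusted p = 0.0084), and it was called in 7 of 18 alternative fits, with adjusted p from 0.00015 to 0.067. It was lost without any of the iNKT1 libraries and without replicate 2 or 3 of iNKT2 in either genotype.

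Genes whose promoter regions followed these members over the 10 libraries were found among 9398 promoter regions, by Pearson's r of log2(CPM + 1), which is a description that shares depth and group structure. Those most like the Slamf6 start were Usp40 (0.909), Eid2 (0.886) and Jak3 (0.872). Those most like the Sh2d1a start were Eef2k (0.963), Uck2 (0.962) and D1Ertd622e (0.958), and those most like the Fyn start Spire2 (0.829), Map1s (0.812) and Fam174b (0.792).

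Other genes of the pathway had 429 regions, 11 of them also in the windows of the 8 genes. In BALB/c iNKT2, 140 of them were lower (32.6%, against 23.4% of all regions) and 65 higher (15.2%, against 25.7%). In SKG 91 were lower (21.2%, against 17.6%) and 59 higher (13.8%, against 18.4%). Their median changes were -0.22 and -0.11. The 11 shared regions overlapped Cd244a and were already counted in the Ly9 window. Without them, 131 of 418 were lower (31.3%) and 65 higher (15.6%) in BALB/c, and 84 (20.1%) and 59 (14.1%) in SKG. Among the remaining SLAM family receptors and adaptors, with 42 regions, 19 were lower (45.2%) and 5 higher (11.9%) in BALB/c, of which 11 lower regions were at Cd244a. The Cd244a calls in part repeat those of the Ly9 window. The kinases and adaptors had 99 lower (31.8%) and 45 higher (14.5%) of 311. At Malt1, a paracaspase of the NF-kB pathway, 15 of 19 were lower (78.9%), and at Lck, the kinase that acts before Zap70, 12 of 28 (42.9%). In SKG 13 were lower at Malt1 (68.4%) but only 3 at Lck (10.7%, against 17.6% of all regions). Other genes of this list leaned the other way in BALB/c. Rasa1 had 4 of 10 higher and 0 lower, and Nfkb1 had 12 of 37 higher and 10 lower. The phosphatases had 19 lower (29.7%) and 11 higher (17.2%) of 64 in BALB/c. Cd1d1, which encodes the presenting molecule, had 3 lower (25.0%) and 4 higher (33.3%) of 12. Between genotypes, the list had 1 region higher (0.233%, against 0.662% of all regions) and 4 lower (0.932%, against 1.42%) in iNKT1. In iNKT2 it had 14 higher (3.26%, against 4.02%) and 28 lower (6.53%, against 10.1%), so each share was below that of the whole table.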

How the data were processed

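ATAC-seq libraries were made from sorted thymic iNKT1 and iNKT2 cells. The authors kept unique alignments (Bowtie 1.0, mm10) without duplicates or mitochondrial reads, merged expanded MACS2 summits called in each replicate, and deposited counts of transposase insertions per region. The table is named as normalised, but its values are whole numbers with unequal library totals and were used as raw counts. Unique mapping to the C57BL/6 reference may lose BALB/c reads at divergent SLAM genes, in both genotypes alike. Counts from 14988590 to 36342635 per library set the precision, and floors cover counting error only.

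All 94823 regions were fitted together with edgeR 4.0.16 (R 4.3.3; TMM, 1 mean per group, quasi-likelihood F test, Benjamini-Hochberg over all regions; called at adjusted p under 0.01, with 4-fold as a stricter call). SE is the log2 change divided by the square root of F. Genes came from GENCODE M21, and sequences from RefSeq's GRCm38.p6. Alternatives used DESeq2 1.42.0, limma 3.58.1, other scalings, filters, windows and left-out libraries. Named regions were, for each gene, the start region, the smallest adjusted p among called regions per contrast, the highest level per kb, and interaction or 4-fold genotype calls. Other regions named were chosen after their values were seen. These were the inner Slamf7 start, a low Fyn start, the Slamf1 region at 0 and the further regions inside Ly9 and Cd48. A region that this rule names at Slamf6 is not reported here. The members and lists were chosen with earlier results of these data known.

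The replicate numbers were checked for pairing by the correlation of deviations from group means. Same-number pairs across genotypes in iNKT2 correlated at 0.446, 0.136 and 0.156, all above 0.1, so a fit with pairs as a block was also run. Different-number pairs reached 0.139 and 0.207, and the labels do not state a shared batch. Other same-number pairs ran from -0.0179 to 0.0943.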

Additional observations from a re-analysis of the deposited data

Results flagged for a closer look

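The genotype change at the region 10.2 kb upstream of Fyn (chromosome 10, 39358473–39358805) differed between the subsets in the test of the difference itself, at -1.786 on the log2 scale: SKG measured above BALB/c in iNKT1 (1.05, adjusted p = 0.032, edgeR) and below it in iNKT2 (-0.74, adjusted p = 0.011), neither past the threshold. Over the whole table, 423 regions were called higher and 454 lower in that test.

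At the region over the inner start of Cd84 (chromosome 1, 171840427–171841080), both SKG iNKT1 libraries were below both BALB/c iNKT1 libraries and all SKG iNKT2 libraries were above all BALB/c iNKT2 libraries. How many regions of the whole table separate in this way was not counted. The changes were small, -0.22 in iNKT1 (adjusted p = 0.58, edgeR) and 0.15 in iNKT2 (adjusted p = 0.46), and were called in 0 alternative fits. The difference of the changes was 0.3695 on the log2 scale and missed the threshold (0.37 ± 0.22 SE, adjusted p = 0.37, edgeR's quasi-likelihood test).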

How the results depend on the processing

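No called result changed direction under the alternatives run. The subset difference at the Slamf7 intron and upstream regions, the Slamf1 and Cd84 upstream regions and the Fyn intron was called in all 14 alternative fits in both genotypes. Counts that moved by over 1.5 times are given here, over the 151 regions, with higher before lower. In BALB/c iNKT2 against iNKT1 (27 and 56; 4-fold 8 and 34), the gene record alone gave 15 and 34 (4-fold 4 and 19), the filter on low counts 37 lower and 4 higher by 4-fold, library totals 13 and quantile voom-limma 2 higher by 4-fold, and the 10 kb window 4. In SKG (21 and 53; 4-fold 9 and 34), the gene record gave 35 lower (4-fold 5 and 17), the 10 kb window 21 lower by 4-fold, quantile voom-limma 3 higher by 4-fold, and an adjusted p under 0.05 gave 32 higher. For genotype in iNKT1 (0 and 0), DESeq2 gave 2 and 1, the fit of only these groups 7 and 13, an adjusted p under 0.05 gave 5 and 5, the replicate block 1 lower, and the block within iNKT2 7 and 10. Over all 94823 regions, DESeq2 called 1160 and 1862 there, and the fit of only these groups 2881 and 3970. The replicate block called 1914 lower, and the block within iNKT2 1883 and 3510. For genotype in iNKT2 (6 and 5), library totals gave 0 higher, the filter 2 higher, the fit of only these groups 3 and 3, DESeq2 8 lower, quantile voom-limma 11 and 3 (4-fold 3 higher), an adjusted p under 0.05 gave 16 and 15, the replicate block 9 lower, and the block within iNKT2 12 and 13. Over all 94823 regions, library totals called 1665 higher there, the fit of only these groups 2117 and 8597, and DESeq2 10989 lower. Quantile voom-limma called 4946 and 7785 (4-fold 1173 higher), the replicate block 11164 lower, and the block within iNKT2 11010 and 14239. The filter called 2065 higher of its 71183 regions. The interaction (0 and 1) fell to 0 lower with library totals, both voom-limma fits and both narrower windows, and became 2 higher at an adjusted p under 0.05 and 2 and 2 with the block within iNKT2. The causes were not tested, apart from the narrower windows, which hold fewer regions. The replicate block moved no other count by over 1.5 times.

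With 1 library left out, counts ran from 19 to 29 higher and 48 to 55 lower in BALB/c (4-fold 6 to 10 and 33 to 35), from 14 to 20 and 38 to 50 in SKG (4-fold 7 to 11 and 32 to 35), and stayed at 0 for genotype in iNKT1. For genotype in iNKT2 they ran from 1 to 6 higher and 2 to 7 lower (4-fold 0 to 1 in each direction). Leaving out BALB/c iNKT2 libraries gave 3 lower (replicate 1), 2 higher and 3 lower (replicate 2) and 1 higher (replicate 3), and leaving out SKG iNKT2 libraries gave 3 and 2 (replicate 2) and 2 and 3 (replicate 3). The interaction ran from 0 to 1 lower, reaching 0 when any iNKT1 library, or replicate 2 or 3 of iNKT2 in either genotype, was left out. With 2 iNKT1 libraries per genotype, leaving 1 out assumes that the lone library varies like the other groups.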
